A study of Xenopus laevis with 6 samples.

Results

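Circular RNAs (circRNAs) are closed RNA rings that are recognised by reads crossing a back-splice junction, where the end of a stretch of RNA is joined to its own beginning. The rings described here are those that the deposited circRNA table places in an intron of a gene or on the strand opposite to a gene. They are all rows of that table with the class intronic (527 rings) or antisense (1396 rings), 1923 of 68575 circRNAs or 2.80%. They hold 7833 of 369648 junction reads, or 2.12%. Intronic rings account for 2163 reads (0.585% of the table) and antisense rings for 5670 reads (1.53%). The most frequent class, exonic circRNAs with 53228 rings and 284499 reads, serves as the comparison below.

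The tissue was testis of Xenopus laevis, the African clawed frog, a tetraploid whose paired chromosomes and gene copies carry the letters L and S. The atrazine group had been kept in 100 µg/L of this triazine herbicide for 180 days, and the control group was unexposed. Each group held 3 libraries of rRNA-depleted total RNA, taken at postnatal day 193 (13 days plus the 180 days of exposure). No label states that the libraries of a group are from different animals. P-values here therefore measure only the spread between libraries, which may be technical.

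Most circRNAs of animals consist of exons, formed when a splice donor is joined to an acceptor further upstream. Rings of intron sequence are a different product. They are known to arise from the intron lariat, a looped intermediate of splicing whose branch is normally opened by the debranching enzyme DBR1 before the intron is degraded, and in human cells such rings have been found in the nucleus. Antisense rings carry the sequence of the strand that the named gene does not use, and which transcript they come from was not tested. The term host gene is used here for the gene the table names beside a ring, which for antisense rings is the gene on the other strand. Rings are named by host gene and span, so that gramd4.S_440 is a ring of 440 nt named for gramd4.S.

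Junction reads per library numbered 63622, 52138 and 37092 in atrazine replicates 1, 2 and 3, and 69338, 86265 and 61193 in control replicates 1, 2 and 3. Intronic and antisense rings were detected 399, 370 and 260 times in atrazine replicates 1, 2 and 3 and 385, 576 and 394 times in control replicates 1, 2 and 3. Detection here means at least 2 reads, because the table holds no count of 1 and a 0 can therefore stand for 0 or 1 read. The germ cell markers summed to 1065 to 1182 FPKM in atrazine and 1047 to 1171 FPKM in control testes, over 5 mRNA rows of 4 of 6 listed genes. Leydig cell markers, 3 of 3 genes in 3 rows, summed to 112 to 225 FPKM in atrazine and 242 to 258 FPKM in control. The 2 rows of 1 of 2 Sertoli cell genes summed to 32.1 to 43.0 FPKM in atrazine and 30.04 to 47.1 FPKM in control. Red blood cell markers, 3 of 3 genes in 4 rows, summed to 135 to 213 FPKM in atrazine and 234 to 685 FPKM in control, and 3 muscle rows to 39.9 to 40.9 FPKM in atrazine and 34.1 to 61.8 FPKM in control. Oocyte markers, 2 of 4 genes in 3 rows, summed to 1.93 to 3.53 FPKM in atrazine and 3.18 to 9.35 FPKM in control, and zp4.L was under 0.5 FPKM in every library. The part of these cell types in any value below was not tested, and in bulk tissue fewer cells of a type and less RNA per cell cannot be told apart.

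Most intronic and antisense rings were rare. Of the intronic rings 465 (88.2%) were found in a single library and 377 (71.5%) rested on exactly 2 reads in all. Of the antisense rings 1222 (87.5%) were found in a single library and 970 (69.5%) rested on exactly 2 reads. Among exonic rings these shares were 76.6% and 56.8%. At the other end stood few rings with many reads. The 5 intronic rings found in all 6 libraries held 447 reads, 20.7% of the class, and the 16 antisense rings found in all 6 held 1267 reads, 22.3% of theirs. At least 20 reads were reached by 13 intronic and 32 antisense rings. The single intronic ring gramd4.S_440 carried 11.8% of all intronic reads, and the 8 intronic rings with the most reads carried 25.7%. For antisense rings these shares were 4.004% and 17.1%, and for exonic rings 0.279% and 1.72%. A share of a fixed number of rings is smaller in a larger class, and the classes closer in size had shares of 6.21% and 13.5% (sense overlapping, 9459 rings) and 2.70% and 15.2% (intergenic, 3965 rings).

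**Figure D1:**
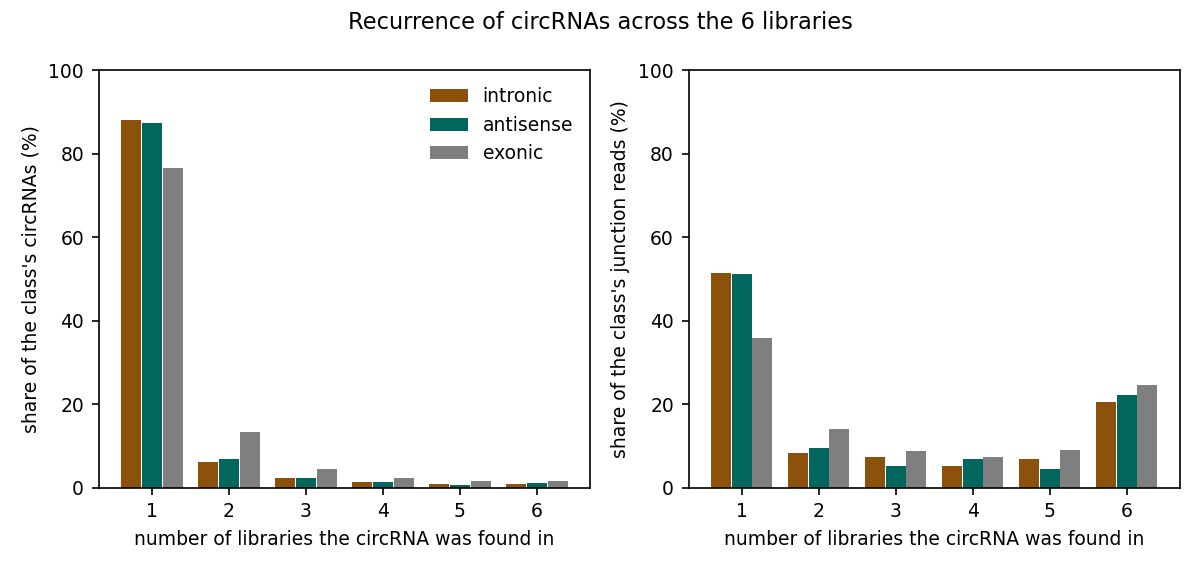
Share of the circRNAs (left) and of the junction reads (right) of each class, in percent, by the number of libraries in which a ring had at least 2 reads. Rings of a single library made up 88.2% of intronic and 87.5% of antisense rings against 76.6% of exonic ones, while the rings of all 6 libraries held 20.7% and 22.3% of the reads against 24.7%.

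The test of recurrence was made within libraries. In each library the share of detected rings that were also found in at least 3 of the other 5 libraries was taken for the class and for exonic rings. For intronic rings it averaged 13.3% ± 2.81 and for exonic rings 19.2% ± 2.26 (SD, n = 6 libraries). For antisense rings it averaged 13.3% ± 2.29. Intronic and antisense rings were both lower than exonic rings in 6 of 6 libraries (exact two-sided sign-flip permutation test, p = 0.03125, adjusted p = 0.03125 over 8 comparisons). This is the smallest p that 6 libraries allow, and the libraries share many rings. When detection was set at 5 reads the antisense difference turned round, to 10.998 percentage points above exonic rings. Antisense rings were then higher in 6 of 6 libraries (exact sign-flip permutation test, p = 0.03125, adjusted p = 0.125). The intronic difference of -7.19 points had an adjusted p of 0.4 in that test. Mean reads per detected ring showed the same pattern, with 3.30 ± 0.244 for intronic and 3.26 ± 0.245 for antisense rings against 3.68 ± 0.210 for exonic rings, lower in 6 of 6 libraries (p = 0.03125 in the same permutation test, n = 6). At 5 reads these differences were -0.0107 reads for intronic and 0.447 reads for antisense rings, with adjusted p of 1 and 0.4. In another setting exonic rings were limited to host genes of the class, while all rings of the class were kept. Of the class, 61.3% of intronic and 58.8% of antisense rings have a host with exonic rings, so hosts were not fully matched. The recurrence difference was then -12.5 points for intronic and -9.77 points for antisense rings. The difference in reads was -1.19 for intronic and -0.508 for antisense rings. Both stayed lower in 6 of 6 libraries (exact sign-flip permutation test, adjusted p = 0.03125).

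Intronic rings were short. The span, from the first to the last base on the genome, ranged from 87 to 74103 nt, with a median of 468 nt and quartiles of 223 and 2069 nt. Antisense rings ranged from 95 to 98258 nt, with a median of 1370.5 nt and quartiles of 282 and 6601.5 nt. The median span of exonic rings was 3105.5 nt. In all 1923 intronic and antisense rings the span equals the ring length that the table predicts, that is, the interval with nothing spliced out, whereas this holds for 15.5% of exonic rings. The spans of exonic rings therefore include introns that the predicted ring does not.

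Across libraries the median span of detected intronic rings averaged 494 ± 68.3 nt, against 3029 ± 238 nt for exonic rings (SD, n = 6). Each library's median lay between 415.5 and 587 nt for intronic and between 2783 and 3423 nt for exonic rings, so the ranges were far apart. For antisense rings the library medians lay between 1052 and 1808 nt, with a mean of 1465 ± 298 nt. Both classes had shorter genomic spans than exonic rings in 6 of 6 libraries (exact sign-flip permutation test, p = 0.03125, adjusted p = 0.03125). Since exonic spans include introns, this is no comparison of the lengths of the ring RNAs, which was not made. With detection at 5 reads the differences kept their direction, -1774 nt for intronic and -412 nt for antisense rings, with adjusted p of 0.167 and 0.5. Set against intergenic rings, the antisense median was 175 nt longer (adjusted p = 0.25), while the intronic difference was -796 nt. Reads per ring differed from intergenic rings by -0.719 for intronic and -0.761 for antisense rings, and recurrence by -3.10 and -3.12 points. Apart from the antisense span, all were lower in 6 of 6 libraries (exact sign-flip permutation test, adjusted p = 0.0375). The comparisons with intergenic rings were added after the data were seen. With only the exonic rings limited to host genes of the class, as for recurrence, the differences were -4723 nt for intronic and -2276 nt for antisense rings (exact sign-flip permutation test, adjusted p = 0.03125).

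The shares of rings and of reads by span were as follows in each class. The 173 intronic rings from 200 to under 500 nt made up 32.8% of the class and held 42.8% of its reads, and the ring gramd4.S_440, with 11.8% of all intronic reads, is one of them. The 100 intronic rings under 200 nt made up 18.98% of rings and 13.3% of reads, and the 33 of 10000 nt or more 6.26% and 5.92%. Antisense rings from 200 to under 500 nt numbered 329 (23.6% of rings) and held 26.9% of reads, and those of 10000 nt or more numbered 257 (18.4%) and held 20.8%. The longest intronic ring was LOC108718434_74103, with 3 reads in control replicate 3. It lies inside the locus given for a zinc finger gene on chromosome 6L, where 35 mRNA genes are listed on the ring's strand. Among antisense rings the shortest was LOC108699996_95, opposite a HUWE1-like ubiquitin ligase gene, with 2 reads in control replicate 1. The longest was LOC108695941_98258, partly opposite a gene for a sialic acid-binding lectin, with 3 reads in control replicate 1. It runs from base 116739756 to 116838013 of chromosome 7L, while the locus of that gene ends at 116748764. These extremes of span each rest on a single library.

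**Figure D2:**
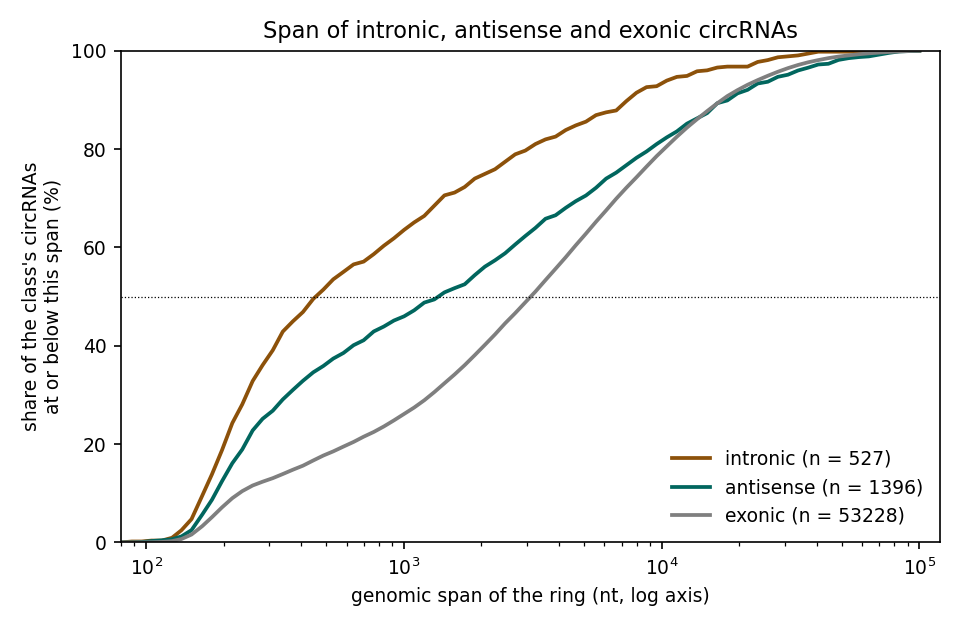
Cumulative share of rings (percent) by genomic span (nt, log axis) for intronic, antisense and exonic circRNAs of all 6 libraries together. The dotted line at 50% is crossed at 468 nt by intronic, at 1370.5 nt by antisense and at 3105.5 nt by exonic rings.

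The ends of the rings were compared with those of exonic rings, which give 41928 donor and 38875 acceptor positions. These are only the splice sites that exonic rings use, and the sites of the intron around an intronic ring need not be among them. An intronic ring shared its first base with an exonic ring's acceptor in 13 cases, and its last base with a donor in 13 cases, counted separately. As these bases also bound exonic rings, the intronic label is uncertain in these cases. The first base lay directly after such a donor in 1 intronic ring, and the last base directly before such an acceptor in 0. Within their own class 62 intronic rings (11.8%) shared an end with another ring, as did 211 antisense rings (15.1%) and 64.1% of exonic rings. In the classes closer in size it was 34.1% of sense overlapping and 30.3% of intergenic rings. A ring of a larger class has more rings to share an end with, so shares of classes of unlike size cannot be compared directly. Intronic rings that shared an end were found in at least 2 libraries in 19.4% of cases, against 10.8% of those that shared none. For antisense rings these shares were 27.01% and 9.87%. No test was made of these shares, because rings that share an end also share a locus.

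The ring gramd4.S_440 led the intronic class. It lies on chromosome 3S at 73350220 to 73350659 of the plus strand, inside the 53443 bp locus of gramd4.S, a gene for a GRAM domain protein. The build of these positions was not given in the sources used here. It had 61, 26 and 22 reads in atrazine replicates 1, 2 and 3, and 48, 69 and 30 reads in control replicates 1, 2 and 3. Scaled to 1000000 junction reads per library (RPM), this was 684 ± 243 RPM in atrazine and 661 ± 157 RPM in control (SD, n = 3 each). The groups overlapped, and the ring was abundant in all 6 libraries (edgeR quasi-likelihood test, log2 fold change -0.18, adjusted p = 0.999). The 4 exonic rings of gramd4.S had 12 reads together, so in this gene the intronic ring had more reads than the exonic rings. Sense overlapping rings of the gene were not counted here. The mRNA of gramd4.S averaged 14.3 ± 1.21 FPKM in atrazine testes and 14.8 ± 0.265 FPKM in control testes.

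Next in number of reads came LOC108696607_306, in the gene for a cytosolic acyl-CoA thioesterase that splits fatty acyl-CoA, named acot7.L in assembly v10.1. It had 8, 10 and 7 reads in the atrazine libraries and 22, 27 and 6 reads in the control libraries. The control libraries 1 and 2 were the highest and control replicate 3 the lowest in RPM, so the groups overlapped. Its gene carried 58 reads in 10 exonic rings. LOC108713974_342, in a gene without a description in the annotation used, had 8, 8 and 0 reads in atrazine and 6, 16 and 6 reads in control. hivep1.S_191, in the gene of a zinc finger transcription factor, was found in every library, with 6, 7 and 4 reads in atrazine and 8, 10 and 9 reads in control. Its levels were even, at 112 ± 20.3 RPM in atrazine and 126 ± 18.1 in control. dnajc11.S_4211, in the gene of a mitochondrial co-chaperone, had 13, 3 and 3 reads in atrazine and 11, 9 and 2 reads in control. Replicate 1 of each group held the most reads of this ring. The host mRNA was even, with 10.03 ± 0.822 FPKM in atrazine testes and 9.85 ± 1.45 FPKM in control testes.

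Among the other intronic rings with many reads LOC108710844_290 had 8, 8 and 4 reads in atrazine and 5, 9 and 0 reads in control. Relative to depth its lowest atrazine library stood at 108 RPM and its highest control library at 104, so the groups did not overlap, though its edgeR adjusted p was 0.999. The ring cdkn1a.L_8675 lies in the gene of the cell cycle inhibitor p21. It was found in all 6 libraries with 3, 3 and 7 reads in atrazine and 4, 3 and 6 reads in control. A pair of rings lay in the zinc finger locus of chromosome 6L, where the annotation stretches 1835401 bp and lists 35 mRNA genes on the ring's strand, so their host is uncertain. Of these LOC108718434_1129 had 6, 2 and 9 reads in atrazine and 0, 10 and 2 in control. LOC108719523_13070 had 9, 14 and 0 reads in atrazine and 5, 0 and 0 in control, so both were uneven within groups.

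The most abundant antisense ring was znf16.L_226, on the minus strand of chromosome 6S at 1496939 to 1497164. It had 54, 45 and 15 reads in atrazine and 22, 42 and 49 reads in control. This gave 705 ± 261 RPM in atrazine and 535 ± 245 in control, with overlapping values (edgeR, adjusted p = 0.999). The locus given for the zinc finger gene named by the table spans 524103 bp on the other strand. Loci of 12 other mRNA genes lie over the ring on its own strand. Such a locus is an interval of the annotation and need not be that of a single gene, so the source transcript is uncertain. LOC108705484_377, on an unplaced sequence, was close behind with 31, 49 and 16 reads in atrazine and 49, 43 and 35 reads in control. It was abundant in all 6 libraries at 619 ± 279 RPM in atrazine and 592 ± 106 in control. Neither host had an exonic ring.

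LOC108713084_2040 lies opposite a gene similar to copine-8, a calcium-dependent membrane-binding protein. It had 23, 14 and 2 reads in atrazine and 31, 37 and 15 reads in control. The lowest value was that of atrazine replicate 3, the library with the fewest reads, and the groups overlapped in RPM. LOC108711565_188 lies opposite the gene of the metal transporter CNNM4 and had 11, 5 and 5 reads in atrazine and 3, 12 and 31 reads in control. Control replicate 3 alone held 31 of its 67 reads. The mRNA opposite was measured in every library, with 17.6 FPKM in control replicate 3 and 15.7 to 20.8 FPKM in the others.

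The locus of LOC108699763, an uncharacterized gene on chromosome 8S, gave 4 antisense rings with 258 reads, some of which share ends. Of these, 2 rings share the last base 9652089 and 2 share the first base 9673608. The ring of 21594 nt had 19, 17 and 4 reads in atrazine and 21, 39 and 18 reads in control. The ring of 840 nt was more even, with 14, 17 and 5 reads in atrazine and 13, 13 and 14 in control. The ring of 20754 nt behaved differently from its neighbours. It had 16, 18 and 10 reads in the atrazine libraries and 18, 0 and 0 reads in the control libraries, so control replicate 1 alone carried it. Over all 6 libraries its log2 fold change was 1.53 (edgeR quasi-likelihood test, adjusted p = 0.999). Without control replicate 1 the adjusted p was 0.0182, against a control group at 0 reads, so this call hung on the library left out. The gene on the other strand stood at 0.779 to 1.18 FPKM in the 6 libraries and had no exonic ring.

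The locus with the most antisense rings was that of LOC108698483, a gene for muscleblind-like protein 3 on chromosome 8L, where 8 rings held 165 reads. Muscleblind proteins bind RNA and regulate splicing. Of the 8 rings 6 end at the same base, 46410194 of the plus strand, and begin at different bases, which gives spans from 301 to 45409 nt over the whole set. LOC108698483_8460 had 29, 4 and 4 reads in atrazine and 16, 11 and 8 in control, and LOC108698483_16415 had 6, 14 and 4 reads in atrazine and 11, 9 and 5 in control. The shorter one was highest in atrazine replicate 1 and the longer one in atrazine replicate 2. The host mRNA had 10.8 ± 0.312 FPKM in atrazine testes and 10.2 ± 0.394 FPKM in control testes.

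A further 4 antisense rings with many reads were found in all 6 libraries. LOC108718324_21477 lies opposite DNA methyltransferase 3A, which sets new cytosine methylation. It had 11, 5 and 7 reads in atrazine and 10, 4 and 5 in control. The lncRNA LOC108718325 lies over it on its own strand, with a summed level of 3.23 to 5.04 FPKM in the 6 libraries. LOC108699187_1276 lies opposite a gene similar to DPF3, a subunit of a chromatin remodelling complex, and had 5, 7 and 8 reads in atrazine and 12, 6 and 3 in control. LOC108715141_9842, opposite an AHNAK-like gene, had 4, 12 and 8 reads in atrazine and 7, 12 and 7 in control. fam49b.L_151, opposite a gene for a regulator of actin remodelling, had 8, 9 and 14 reads in atrazine and 10, 7 and 4 in control. All 4 had overlapping groups.

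**Figure D3:**
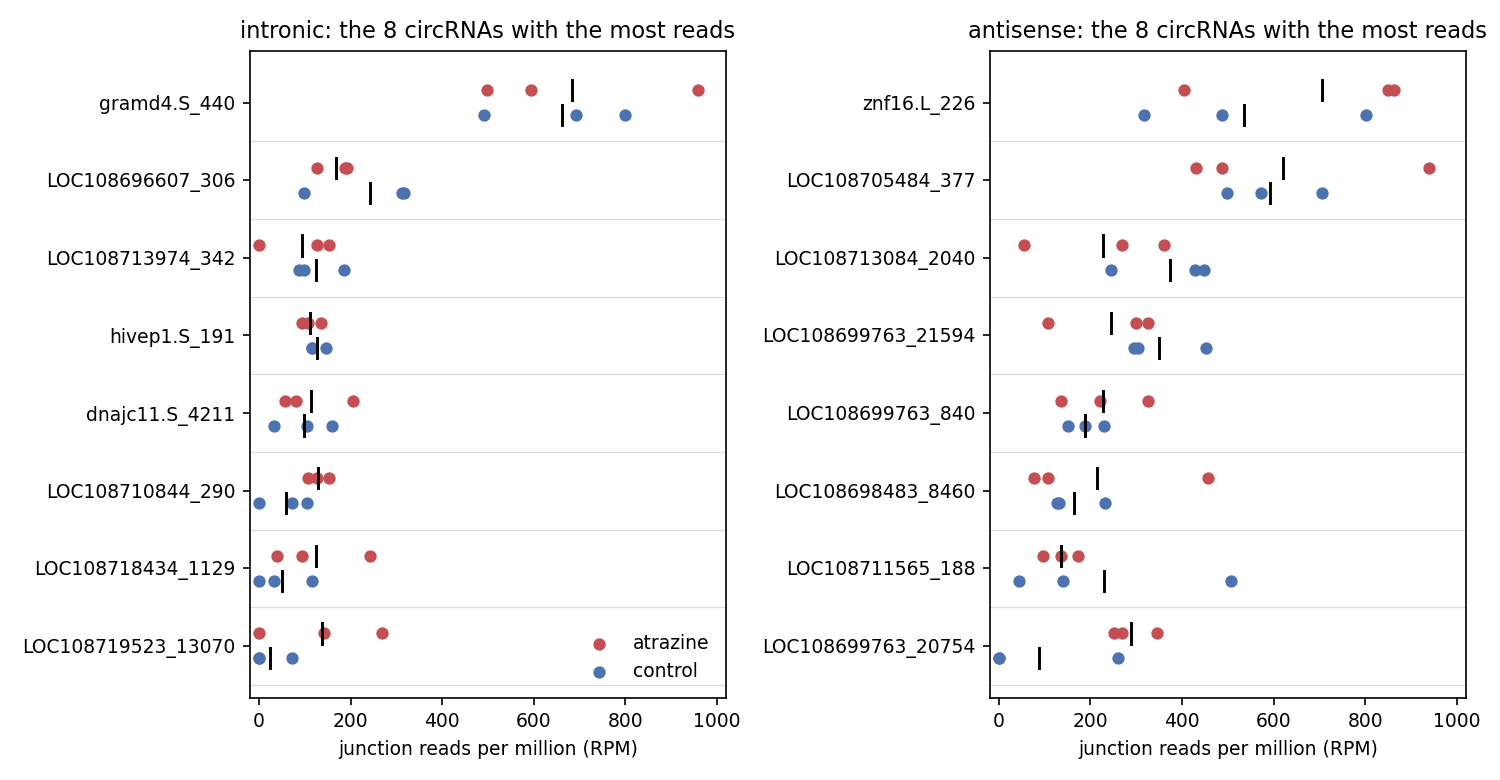
RPM (reads per library of 1000000 junction reads) of the 8 intronic (left) and the 8 antisense (right) rings with the most reads, 1 point per library, atrazine above control, with black ticks at the group means. Values of the groups overlapped or, in LOC108710844_290, were apart by 108 against 104 RPM, and LOC108699763_20754 was at 0 in 2 of 3 control libraries.

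Several rings of a locus were the exception. Of the 442 host names of intronic rings 393 had 1 ring and 18 had at least 3. Of the 1172 host names of antisense rings 1010 had 1 ring and 37 had at least 3. In 15 of these 18 intronic loci and in 26 of these 37 antisense loci at least 2 rings shared an end. The host with the most intronic rings was paxbp1.L, the gene of a PAX3 and PAX7 binding protein, with 9 rings but 22 reads, of which 3 rings share the first base 14307882 of chromosome 2L. The signal peptidase subunit gene spcs2.L followed with 6 rings and 33 reads, 3 of them with the same last base. znf214 had 6 intronic rings with 14 reads, LOC108719524 had 5 with 15 reads and LOC108716145 had 5 with 12 reads. Among antisense loci LOC108696121 and LOC108709562 had 7 rings each with 21 and 20 reads, and LOC108718458 had 6 rings with 19 reads. At enpp7.L, a gene whose product splits sphingomyelin in the mammalian intestine, 5 of 6 antisense rings begin at base 27551656 of chromosome 9_10L, with spans from 11626 to 34174 nt over the 6.

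All 484 intronic rings whose host has an mRNA row lay on that gene's strand and inside its locus. All 1340 antisense rings with such a row lay on the opposite strand, 1074 of them inside the locus and 266 reaching beyond it. A host row was accepted only where it overlapped the ring, so a place at the locus was fixed by the match. The strand was not used in the match, but the class name itself implies it. The strands thus matched the class names, which checks the match and is no separate result. Apart from the ends of exonic rings described above, no exon or intron positions were used, so the placement in introns was not checked. Long and overlapping annotations also blur the hosts. Of the intronic rings 87 (16.5%, with 401 reads) lay over the locus of a second gene on their strand. Of the antisense rings 74 (5.30%, with 511 reads) lay over that of a gene on their own strand. A lncRNA of the deposited lncRNA table lay over 61 intronic and 44 antisense rings on the ring's strand. The antisense rings met 42 such lncRNA genes, of which 18 reached 0.5 FPKM. Rings of both classes shared 50 host names, 11.3% of the intronic and 4.27% of the antisense ones. A single antisense ring was mitochondrial, COX1_363, opposite a cytochrome c oxidase gene, with 2 reads in atrazine replicate 2.

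Rings on L chromosomes made up 63.7% of the intronic and 65.6% of the antisense rings that could be placed on L or S. The share was 64.1% for exonic rings and 58.6% for mRNA genes. By symbol alone, no gene had rings under both its L and its S name, over 155 symbols for intronic and 338 for antisense rings. Copies that carry a LOC name cannot be paired this way. The letter of a symbol does not always match the chromosome either, as for spcs2.L on 2S and znf16.L on 6S. Whether both copies of a gene have rings was therefore not tested.

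Hosts of intronic rings were expressed at middle levels and those named beside antisense rings at lower ones. FPKM, a read level scaled to transcript length and library size, was averaged over the 6 libraries. The median was 8.46 FPKM over 402 hosts of intronic rings, 5.35 FPKM over 1122 hosts of antisense rings, 10.9 FPKM over 13944 hosts of exonic rings and 4.43 FPKM over all 31598 mRNA rows. Hosts under 0.5 FPKM made up 6.97% for intronic, 17.3% for antisense and 6.25% for exonic rings, and 24.9% of all mRNA rows. In the same comparison within libraries the median host level was 9.64 ± 1.03 FPKM for intronic and 4.69 ± 0.707 FPKM for antisense rings, against 13.3 ± 0.743 FPKM for exonic rings (SD, n = 6). It was lower in 6 of 6 libraries for both classes (exact sign-flip permutation test, p = 0.03125, adjusted p = 0.03125). With detection at 5 reads the differences were -0.398 FPKM (adjusted p = 0.679) for intronic and -10.07 FPKM (adjusted p = 0.125) for antisense rings.

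**Figure D4:**
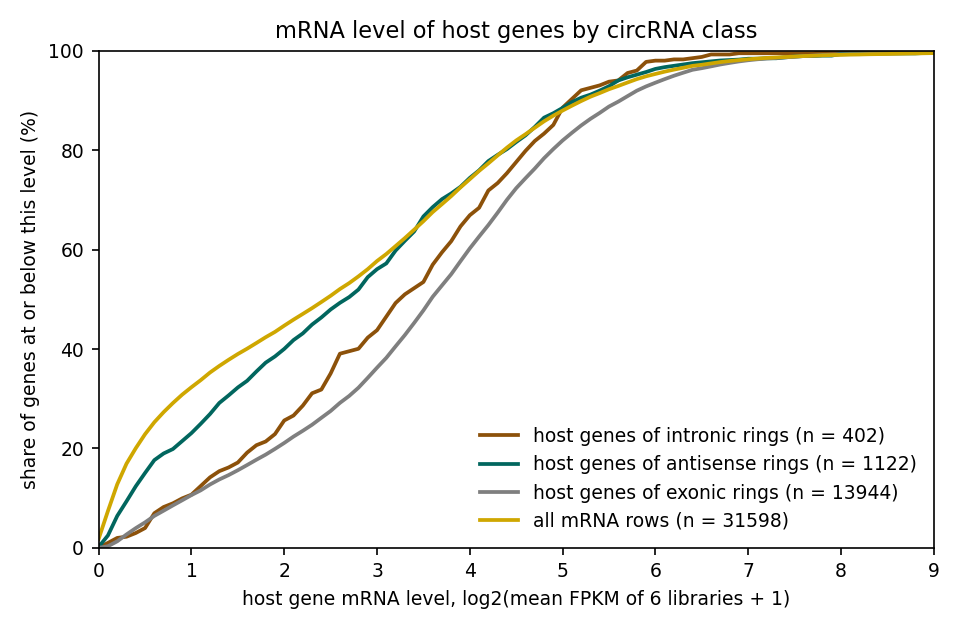
Cumulative share of genes (percent) by mRNA level, log2 of the mean FPKM of 6 libraries plus 1, for the hosts of intronic, antisense and exonic rings and for all mRNA rows. Below 0.5 FPKM lie 6.97% of intronic hosts and 17.3% of antisense hosts, against 6.25% of exonic hosts and 24.9% of all rows.

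The number of ring reads was set beside the level of the host mRNA. Across hosts Spearman's rank correlation between summed ring reads and mean FPKM was 0.138 for intronic (402 hosts), -0.0736 for antisense (1122 hosts) and 0.282 for exonic rings (13944 hosts). These are descriptions across genes, which share libraries and are not independent. Of the 75 antisense rings with a host row that were found in at least 3 libraries, 11 had a host under 0.5 FPKM, and of 27 such intronic rings 2 had one. Exonic rings were present in 62.9% of the hosts of intronic rings and 58.1% of those of antisense rings. Among these hosts intronic reads outnumbered exonic reads in 31 of 278 (11.2%), and antisense reads did so in 73 of 681 (10.7%).

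The study compared testes with and without atrazine. The intronic share of junction reads was 0.644%, 0.664% and 0.558% in atrazine replicates 1, 2 and 3, and 0.477%, 0.603% and 0.570% in control replicates 1, 2 and 3. Control replicate 1 was lowest and atrazine replicate 3 lay between the control libraries, so the groups overlapped. The means were 0.622% ± 0.0562 in atrazine and 0.550% ± 0.0651 in control (SD, n = 3 each), and the exact two-sided permutation test gave p = 0.3. The smallest p that 3 against 3 libraries allow is 0.1. Wilson 95% intervals of single libraries, which cover counting error only, ran for instance from 0.585% to 0.710% for atrazine replicate 1 and from 0.429% to 0.532% for control replicate 1. The antisense share was 1.47%, 1.77% and 1.45% in atrazine and 1.41%, 1.59% and 1.51% in control. Atrazine replicate 2 was the highest of all and the groups overlapped, with means of 1.56% ± 0.180 in atrazine and 1.503% ± 0.0920 in control (p = 0.7 in the same exact test, n = 3 each).

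**Figure D5:**
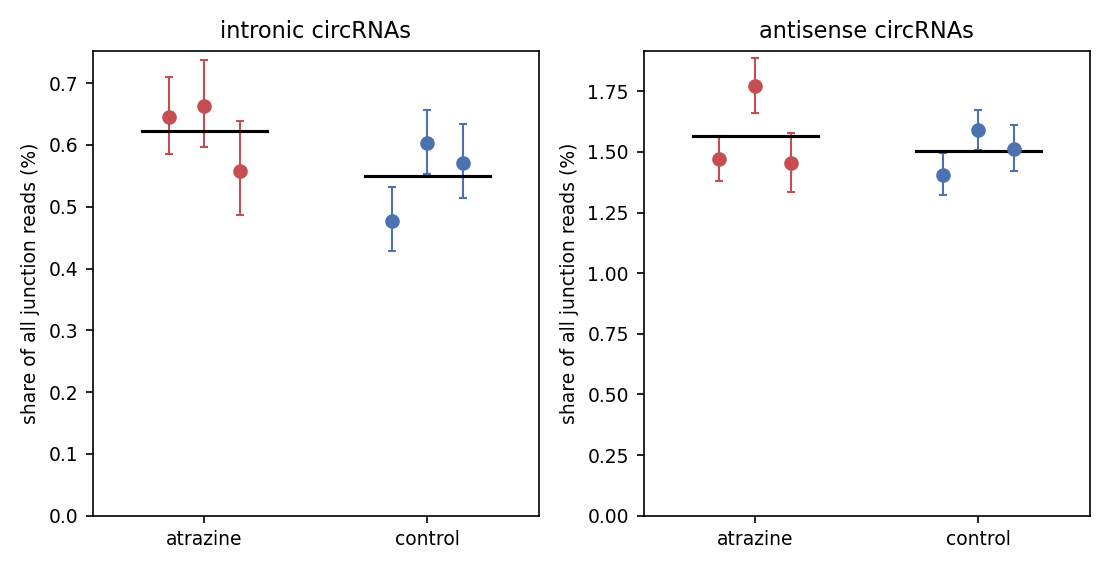
Share of all junction reads, in percent, that fell on intronic (left) and antisense (right) rings, 1 point per library with its Wilson 95% interval and a line at the group mean. Atrazine libraries ranged from 0.558% to 0.664% and control libraries from 0.477% to 0.603% for intronic rings, and from 1.45% to 1.77% and from 1.41% to 1.59% for antisense rings.

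Counted as rings in place of reads, intronic rings made up 0.698% ± 0.0762 of detected circRNAs in atrazine and 0.644% ± 0.0798 in control (exact permutation p = 0.5, n = 3 each). Antisense rings made up 1.79% ± 0.117 in atrazine and 1.77% ± 0.208 in control (exact permutation p = 1, n = 3 each). With detection at 5 reads the intronic share was 0.608% ± 0.0525 in atrazine and 0.456% ± 0.0752 in control without overlap, which is the smallest p allowed (exact permutation p = 0.1, n = 3 each). Found in atrazine libraries only were 207 intronic and 523 antisense rings, in control libraries only 276 and 738, and in both 44 and 135. As a share of the class, 8.35% of intronic and 9.67% of antisense rings were seen in both groups, against 17.3% of exonic rings. The control libraries hold more reads, and the part of depth in these counts was not tested.

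Single rings could be tested where at least 3 libraries had 2 reads or more, which left 29 intronic and 77 antisense rings among 6592 circRNAs. None of them was called at an adjusted p below 0.05 with edgeR and Benjamini-Hochberg adjustment, where 0% of all tested circRNAs were called, and DESeq2 called none either. At an unadjusted p under 0.05 edgeR gave 1 intronic and 6 antisense rings, all lower in atrazine, against 6.28% of all tested circRNAs. Of the 414 circRNAs of all classes with such a p, 333 were lower and 81 higher in atrazine. DESeq2 gave 0 intronic and 2 antisense rings at that p. With DESeq2's size factors in edgeR there were 1 intronic and 7 antisense rings, among them LOC108699763_20754, which was higher in atrazine (edgeR, unadjusted p = 0.0422). The median log2 fold change was 0.02 for the intronic and -0.50 for the antisense rings tested, with -0.26 over all tested circRNAs. With DESeq2's size factors in edgeR it was 0.19 and -0.35, with -0.11 over all. The antisense median turned positive without control replicate 1, 2 or 3, at 0.15, 0.10 and 0.03. Over all tested circRNAs the medians of the same fits were -0.12, 0.01 and -0.18. These fits tested 57, 52 and 61 antisense rings in place of 77, because the filter was applied again. With 2 control libraries left, a ring at 0 in all atrazine libraries could not enter, so the sets of rings differ. RPM did not overlap between the groups in 2 intronic and 2 antisense rings that were higher in atrazine, against 4.17% of all tested circRNAs. They did not overlap in 1 intronic and 7 antisense rings that were lower, against 6.89%. The intronic ring and 6 of these antisense rings were at 0 in all atrazine libraries. Such a ring enters the test only if all 3 control libraries hold it, so its lack of overlap was fixed by the filter.

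With TMM factors the 7 rings with an unadjusted p under 0.05 were all at 0 in the 3 atrazine libraries and present in the 3 control libraries. A ring at 0 throughout the atrazine group enters the test only if all 3 control libraries hold it, so its direction was fixed by the filter. The antisense rings enpp7.L_32967 and chrna1.L_346, opposite a subunit gene of the muscle acetylcholine receptor, had the most control reads. enpp7.L_32967 had 8, 4 and 4 reads and chrna1.L_346 had 4, 4 and 7 reads in the control libraries (edgeR, unadjusted p = 0.0232 and 0.0260, adjusted p = 0.630 for both). asf1a.L_2409, opposite a histone chaperone gene, had 2, 2 and 3 reads in control (edgeR, adjusted p = 0.630). LOC108714082_14358 had 5, 4 and 4 control reads, and ccdc130.L_348 and LOC108697669_453 had 2, 2 and 4 each. The intronic one was dap.S_2747, in the gene of a death-associated protein, with 3, 2 and 2 control reads (edgeR, adjusted p = 0.630). Of 527 intronic and 1396 antisense rings none was present in all 3 atrazine libraries and at 0 in control. In all control libraries only there were 1 intronic and 6 antisense rings. Of 53228 exonic rings 66 were present in all atrazine libraries only and 242 in all control libraries only. The exonic class is far larger, so the 0 is not read as a trait of the intronic and antisense classes. The genes opposite enpp7.L_32967, chrna1.L_346 and asf1a.L_2409 had low mRNA levels, with no library above 0.992, 0.211 and 0.614 FPKM. None reached 0.5 FPKM in 3 libraries, so none was tested with limma. For enpp7.L the levels were 0.412 to 0.992 FPKM in atrazine and 0.108 to 0.312 FPKM in control. Those of chrna1.L and asf1a.L overlapped between the groups. The rings enpp7.L_32967 and asf1a.L_2409 reach beyond the locus of the gene they are named for.

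None of the rings with the smallest p in the other direction passed either. Among intronic rings LOC108709732_880 had 11, 0 and 2 reads in atrazine and 2, 0 and 0 in control (edgeR, unadjusted p = 0.176). mbd2.S_5436 lies in the gene of a protein that binds methylated DNA. It had 3, 4 and 2 reads in atrazine and 2, 0 and 0 in control, without overlap in RPM (edgeR, unadjusted p = 0.239). Among antisense rings LOC108714263_8096 had 6, 0 and 2 reads in atrazine and 0, 2 and 0 in control (edgeR, unadjusted p = 0.274). fam49b.L_151, described above, had 225 ± 134 RPM in atrazine and 96.9 ± 41.7 in control (edgeR, unadjusted p = 0.242). Lower in atrazine among intronic rings was also LOC108712375_1513, with 3, 0 and 0 reads in atrazine and 3, 20 and 0 in control. Its control value came from replicate 2, which held 20 of 26 reads.

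Summed over each host, 38 intronic and 97 antisense sums could be tested among 8735 sums of all classes. None was called with edgeR, as for 0% of all sums. At an unadjusted p under 0.05 there were 1 intronic and 5 antisense sums, all lower in atrazine, against 4.82% of all sums. Of the 421 sums of all classes with such a p, 327 were lower and 94 higher in atrazine. The groups did not overlap in 3 intronic and 1 antisense sums that were higher in atrazine, against 4.14% of all sums, and in 1 intronic and 5 antisense sums that were lower, against 6.29%. The intronic and antisense sums with such a p were dap.S, chrna1.L, LOC108697669, ccdc130.L, limd2.L and asf1a.L, all at 0 in the atrazine libraries. They were also the ones that were lower without overlap. A sum at 0 in all atrazine libraries enters the test only if all 3 control libraries hold it. Its direction and lack of overlap were thus fixed by the filter. Single rings of enpp7.L and LOC108714082 had such a p, but their antisense sums did not. The enpp7.L sum had 4, 9 and 0 reads in atrazine and 12, 4 and 6 in control (edgeR, unadjusted p = 0.668). That of LOC108714082 had 4, 0 and 0 reads in atrazine and 5, 4 and 4 in control (edgeR, unadjusted p = 0.405). LOC101027262 is an intronic sum with values that did not overlap. It had 8, 7 and 4 reads in atrazine and 4, 5 and 4 in control (edgeR, adjusted p = 0.9997), and was named after its values were seen.

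The mRNAs of the hosts were compared in the same way. Of 377 tested hosts of intronic rings none was called with limma on log2(FPKM + 1), as for 0% of 23824 mRNA rows, and 19 had an unadjusted p under 0.05, 14 of them higher and 5 lower in atrazine. Of 929 tested hosts of antisense rings none was called and 46 had such a p, 28 higher and 18 lower. These are 5.04% and 4.95% of the hosts, against 5.92% of all rows. Of the 1410 mRNA rows with such a p, 792 were higher and 618 lower in atrazine. The median log2 fold change was 0.03 for intronic hosts and 0.04 for antisense hosts, with 0.04 over all rows. Of the hosts of the rings named above, LOC108718434 on chromosome 6L had an unadjusted p of 0.0280 (limma, log2 fold change 0.38, adjusted p = 0.693). The mRNA of znf16.L averaged 3.81 ± 0.797 FPKM in atrazine testes and 6.98 ± 3.10 FPKM in control testes, with overlapping values (limma, adjusted p = 0.693).

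Genes of intron turnover and of ring formation were examined beside the rings. Of 15 listed genes for lariat debranching and intron turnover 11 were found, in 12 mRNA rows, and 11 rows were tested, with 10 above and 1 below 0 and none called, where 13659 of all 23824 tested mRNA rows were above and 10165 below 0. The median log2 fold change was 0.12, against 0.04 over all tested rows. xrn2.L, a nuclear exonuclease that degrades RNA from its beginning, had 17.6, 17.5 and 15.6 FPKM in atrazine and 15.3, 8.89 and 12.6 FPKM in control. Its groups did not overlap, which held for 6.63% of all tested rows in that direction and for 4.66% in the other (limma, log2 fold change 0.46, adjusted p = 0.693). The exonuclease gene dis3.L had 22.9 ± 1.98 FPKM in atrazine and 19.1 ± 4.28 in control. The spliceosome disassembly helicase gene dhx15.L had 31.9 ± 3.32 FPKM in atrazine and 27.6 ± 3.07 in control, and aqr.L, an intron-binding helicase gene, had 21.1 ± 2.81 FPKM in atrazine and 18.5 ± 0.755 in control. Both copies of the debranching enzyme gene were measured, with dbr1.L at 23.1 ± 1.89 FPKM in atrazine and 21.4 ± 2.06 in control and dbr1.S at 18.6 ± 0.824 FPKM in atrazine and 19.9 ± 3.68 in control. These copies were named after their values were seen. In each of these 5 rows the groups overlapped, and limma's adjusted p was 0.693 or more.

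Of 20 listed genes for RNA-binding proteins and helicases linked to ring formation 13 were found in 15 rows, with 12 above and 3 below 0 and none called with limma, against the same 13659 above and 10165 below 0 over all tested rows. The median log2 fold change was 0.06, against 0.04 over all. Those with the smallest p include genes for splicing factors and a nuclear RNA-binding protein. The splicing factor gene srsf3.S had 35.1 ± 4.198 FPKM in atrazine and 26.8 ± 5.18 in control. A second one, srsf1.L, had 23.4 ± 0.756 FPKM in atrazine and 17.1 ± 8.03 in control. The paraspeckle protein gene nono.L had 74.2 ± 6.78 FPKM in atrazine and 59.04 ± 14.2 in control. In each of these 3 the groups overlapped and limma's adjusted p was 0.693.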

How the data were processed

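Raw back-splice junction counts for 68575 circRNAs and FPKM values for 31598 mRNA rows and 4652 lncRNA rows were deposited by the authors, per the file headers. Per the submitters' processing notes CASAVA 1.8, Bowtie2 and HISAT2 were used, with no role stated. The circRNA caller, genome build and annotation were not given in the sources used here. No count equals 1, so single reads had been removed from the deposited counts. Control circRNA columns carry a shortened sample name and were matched by its number. Ring positions are those of the files, counted from 1. Hosts were matched by name and overlap of position, 484 intronic and 1340 antisense rings to an mRNA row. Assembly v10.1 of the RefSeq annotation was used for symbols only, found for 1055 of 1564 hosts. No ring sequence was used here.

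Junction counts were tested with edgeR 4.0.16 (quasi-likelihood, TMM factors) on rings that had 2 or more reads in 3 or more libraries, and FPKM with limma 3.58.1 on log2(FPKM + 1) for rows that reached 0.5 FPKM in 3 or more libraries, with group as the only term. P-values were adjusted over all tested rows by the Benjamini-Hochberg method with a threshold of 0.05. A fold change on log2(FPKM + 1) understates the change of low genes. Class shares were compared by exact permutation over 20 assignments and classes within libraries by exact sign flips over 64. Alternatives were DESeq2 1.42.0 and its size factors, no filter, a pseudocount of 0.1, detection at 5 reads, other denominators, a replicate block and each library left out. Scripts were tested on simulated data. PCR copies cannot be told from separate molecules, so counting intervals are minima.

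The members and the gene lists were chosen with earlier results of these data known. Named rings are, per class, the 8 with the most reads, those in all 6 libraries up to 12, the shortest and longest, and the 3 tested with the smallest p in each direction. Named hosts are the 5 with the most rings and the 5 with the most reads per class, besides hosts of named rings. In a list the 4 genes with the smallest p are named. Some items that this rule takes are not reported here. Other names were added after values were seen.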

Additional observations from a re-analysis of the deposited data

How the results depend on the processing

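The comparisons with exonic rings depended on the detection threshold. At 5 reads in place of 2, all 8 lost an adjusted p below 0.05, with intronic minus exonic values of -1774 nt, -0.0107 reads, -7.19 percentage points of recurrence and -0.398 FPKM. The antisense values were -412 nt, 0.447 reads, 10.998 points and -10.07 FPKM, so reads and recurrence turned round. Antisense recurrence was then higher and antisense host FPKM lower than exonic in 6 of 6 libraries (exact sign-flip permutation test, p = 0.03125, adjusted p = 0.125). Against intergenic rings at 2 reads the antisense span turned round to 175 nt, while intronic span and the reads and recurrence of both classes stayed lower. Leaving out 1 library moved the atrazine minus control difference of the antisense read share between -0.0415 and 0.118 percentage points, against 0.0621 with all, and that of the antisense share of detected circRNAs between -0.0603 and 0.134, against 0.0152. The intronic differences stayed positive, from 0.0355 to 0.104 for the read share, against 0.0719 with all, and from 0.00808 to 0.0892 for the detected share, against 0.0535, both lowest without control replicate 1 and highest without atrazine replicate 3. The lowest antisense read share came without atrazine replicate 2, and the detected share was negative without atrazine replicate 2 (-0.0473), control replicate 1 (-0.0603) or control replicate 3 (-0.0277). Calls of edgeR over all classes numbered 0, against 3 with no filter, 1 with the replicate block and 0 to 2 with 1 library left out. For intronic and antisense rings the range with 1 library left out was 0 to 1, LOC108699763_20754 without control replicate 1 with a fitted log2 fold change of 7.01. Host sums gave 2 with no filter, 1 with the replicate block and 0 to 2 with 1 library left out, of which 0 were intronic or antisense. Of mRNA rows limma called 0 to 5 with 1 library left out, and of intronic hosts 0 to 1, ccdc25.S without control replicate 1 (adjusted p = 0.0457). For replicate numbers shared between groups, deviations of each library from its group mean were correlated. Same-numbered libraries gave -0.031, -0.029 and -0.028 in circRNAs and 0.025, -0.35 and -0.039 in mRNAs. Libraries of different number gave up to 0.031 in circRNAs and from -0.36 to 0.41 in mRNAs. Deviations within a group of 3 are tied to each other by its mean, so these values cannot decide whether libraries were paired. With the block edgeR gave 0 intronic and 1 antisense ring at an unadjusted p under 0.05, which was LOC108699763_20754, higher in atrazine. The block changed no other call. With only the exonic rings limited to hosts of the class, all 8 class comparisons kept their direction and call. For host FPKM this setting sets hosts of the class against those of them that had exonic rings, so it is no check of the difference in host level. Apart from the values given here, the 56 values of group comparisons, class comparisons and counts under other settings and the 54 with 1 library left out kept their direction and their side of the threshold. The same held for 120 and 146 such values of single rings, sums and genes. The cause of these shifts was not tested. Of the 1923 rings 29 intronic and 77 antisense had enough reads to be tested singly.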
